A study of Mus musculus with 27 samples.

Results

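Amacrine cell genes were followed in the whole retina of C57BL/6J mice, a common inbred wild-type strain, from embryonic to adult life. The 9 genes were the AP-2 transcription factors Tfap2a, Tfap2b and Tfap2c, the transcription factor Bhlhe22, the GABA and glycine genes Gad1, Gad2, Slc32a1 and Slc6a9, and the calcium-binding protein gene Calb2. Each was the entry of the expression table that carries the symbol, and the 9 genes were 9 of 38168 features listed. None of the 9 symbols was repeated. RNA-seq was made of untreated retinas at embryonic day 14 (E14, n = 3 libraries), E17 (n = 3), postnatal day 1 (P1, n = 4), P6 (n = 3), P15 (n = 4), P28 (n = 4) and P60 (n = 6). Ages up to P1 were of mixed sex and later ones were males, so age and sex cannot be told apart between these sets. Most libraries were pools of retinas from several mice, and some at P60 were single mice, with no record in the labels of which. Values are in cpm, the usual depth-scaled read count, in which the reads of a gene are scaled to the same total in every library.

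Amacrine cells are the interneurons of the inner retina. They contact bipolar cells, ganglion cells and each other in the inner plexiform layer, and most use GABA or glycine as transmitter. AP-2 factors bind GC-rich DNA and take part in the formation of amacrine and horizontal cells, and Bhlhe22 is needed for some GABAergic amacrine and OFF bipolar types. Gad1 and Gad2 encode the glutamate decarboxylases that make GABA, Slc32a1 encodes the transporter that loads GABA and glycine into synaptic vesicles, Slc6a9 encodes the glycine transporter GlyT1 of glycinergic amacrine cells, and Calb2 encodes calretinin. Several of these genes are not private to amacrine cells. Horizontal cells use Tfap2a, Tfap2b and the GABA genes, ganglion cells use Calb2 and bipolar cells use Bhlhe22.

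The 9 genes lie at separate places of the GRCm38 genome, as the GENCODE annotation gives them. Tfap2a is at chr13:40715302-40738376 on the minus strand, Tfap2b at chr1:19208914-19238576 and Tfap2c at chr2:172549593-172558622, both on the plus strand. Bhlhe22 is at chr3:18054174-18057517, Gad1 at chr2:70553072-70602014, Gad2 at chr2:22622205-22693874, Slc32a1 at chr2:158610767-158615748 and Slc6a9 at chr4:117834506-117875198, all on the plus strand. Calb2 is at chr8:110137502-110168210 on the minus strand.

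The AP-2 genes are paralogs, so the first question was whether single reads could be told apart between them. The 120 coding bases most alike among the 3 genes (in frame, without gaps) are shown to let this be seen. Capitals mark, in Tfap2b and Tfap2c, bases that differ from Tfap2a, and in Tfap2a, bases that differ from both others. In Tfap2a it spans 2 exons of transcript Tfap2a-201 at chr13:40719320-40721374, in Tfap2b it spans 2 exons of Tfap2b-201 at chr1:19228455-19231026, and in Tfap2c it spans 2 exons of Tfap2c-201 at chr2:172554054-172556078 (intron included in each range, GRCm38, sense strand).
Tfap2a: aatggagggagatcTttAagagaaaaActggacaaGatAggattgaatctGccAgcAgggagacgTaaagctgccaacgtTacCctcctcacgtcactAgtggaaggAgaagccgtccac
Tfap2b: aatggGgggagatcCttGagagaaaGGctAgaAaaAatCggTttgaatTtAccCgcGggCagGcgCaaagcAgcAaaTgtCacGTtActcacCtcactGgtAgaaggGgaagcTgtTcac
Tfap2c: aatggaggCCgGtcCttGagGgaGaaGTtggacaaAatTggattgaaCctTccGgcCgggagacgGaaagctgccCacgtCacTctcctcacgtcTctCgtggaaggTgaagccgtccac
Tfap2b had the base of Tfap2a at 90 of the 120 places and Tfap2c at 98. Over whole transcripts, the longest run of identical bases was 29 between Tfap2a and Tfap2b, 21 between Tfap2a and Tfap2c, and 15 between Tfap2b and Tfap2c. For Gad1 and Gad2 it was 17. All of these are shorter than the 50-base reads, so a whole read could not be drawn equally from 2 of these genes.

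Sharing with other annotated genes was larger for 3 of the 9. Of all 50-base stretches of the transcripts, 26.3% of those of Slc6a9, 23.7% of those of Slc32a1 and 10.2% of those of Tfap2a also occur in a gene other than the member. For Slc6a9 these were Ccdc24 and Gm17114 and for Slc32a1 Gm14205, which overlap them on the opposite strand, and for Tfap2a many genes across the genome besides the overlapping Gm26688. The share was 1.49% for Gad1, 1.17% for Gad2 and 0.03% for Tfap2b, and none was found for Tfap2c, Bhlhe22 and Calb2. Whether counting used the strand was not given in the sources used here, so reads of Slc6a9, Slc32a1 and Tfap2a cannot be told apart from reads of those genes where they overlap.

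Recovered read totals ran from 7076646 to 11330762 per library, with a median of 7968785. The tissue was checked by Crx, a gene of the neural retina, which was at 80.2 ± 1.91 cpm at E14 (mean ± SD, n = 3), its lowest age, and 891 ± 77.7 cpm at P60 (n = 6). Lens markers summed to at most 5.49 cpm and pigment epithelium markers to at most 44.5 cpm in any library. Libraries 1 and 2 of P60 were nearer to P28 libraries (mean correlation across genes of 0.98) than to the other P60 libraries (0.96). Library 6 was marginally nearer to P28. Library 3 had the lowest mean correlation of the P60 libraries, 0.958 with the others of P60 and 0.946 with P28. Comparisons that use P60 were also run without libraries 1 and 2, an alternative chosen after the data were seen.

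All 9 genes varied with age. In a limma F test across the 7 ages each was called, with the largest adjusted p at 2.3e-14 for Tfap2c, where 83.0% of the 31760 features tested were called. Between mature (P15, P28 and P60, n = 14) and embryonic (E14 and E17, n = 6) retina, 8 were called higher and 1 lower in the mature retina, and all 9 were also called without P60 libraries 1 and 2. The background was high, with 35.0% of all features called higher and 40.4% lower. Without those P60 libraries, 11316 of the 31760 features were called higher and 13351 lower. Gad1 was higher by 4.42 ± 0.06 (log2 fold change ± SE on the scale of cpm + 1), Slc6a9 by 3.62 ± 0.08, Slc32a1 by 2.83 ± 0.10 and Calb2 by 2.21 ± 0.07. For these 4, every mature library was above every embryonic library, as was the case for 17.4% of all features (23.0% were apart in the other direction, as no member was). Gad2 fell by 0.64 ± 0.08. The remaining 4 genes, the transcription factors, had small differences and overlapping libraries, with Tfap2c at 0.86 ± 0.09, Tfap2b at 0.41 ± 0.06, Bhlhe22 at 0.33 ± 0.09 and Tfap2a at 0.31 ± 0.07. The embryonic side of these differences averages a lower level at E14 and a higher one at E17. At E17 every library of Tfap2a and Tfap2b was above every mature library, of which the highest were at 55.7 and 282 cpm. Tfap2c and Bhlhe22 at E17 were within the range of the mature libraries. As plain means over libraries in cpm, mature Tfap2a (43.3 cpm) and Tfap2b (226 cpm) were below the embryonic means (51.7 and 232 cpm). These means weight libraries equally, while the limma contrast weights ages equally. The sign thus depends on the scale for Tfap2a, and for Tfap2b also on this weighting.

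**Figure D1:**
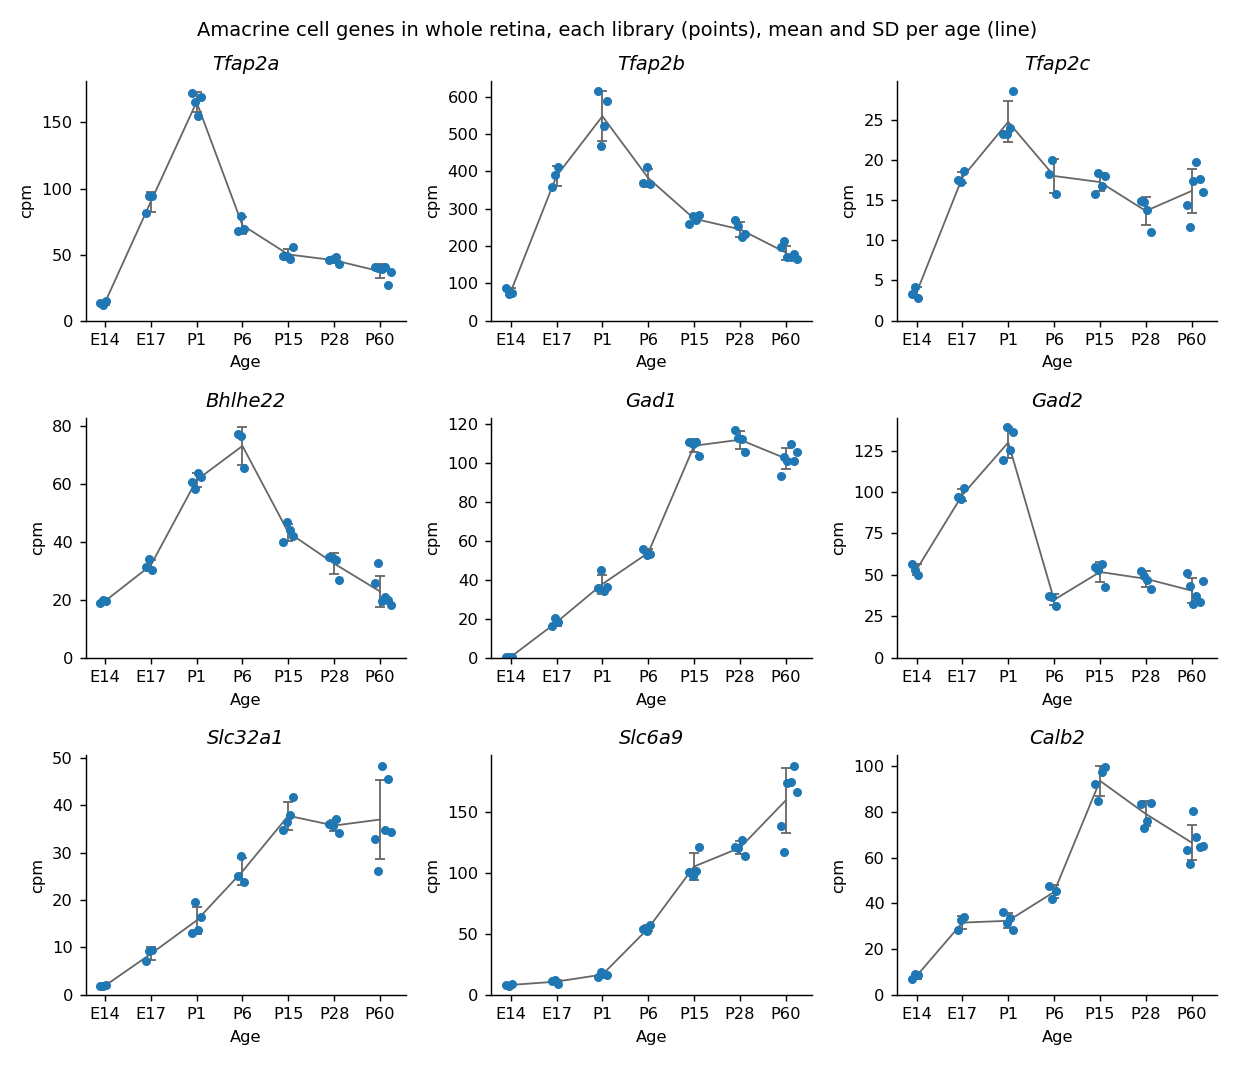
Level of each gene (cpm, linear axis from 0) at the 7 ages in order (not to scale in time), with 1 point per library and the mean and SD per age as a line. The 3 AP-2 genes and Gad2 were highest at P1, Bhlhe22 at P6, and Gad1, Slc32a1, Slc6a9 and Calb2 at P15 or later.

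The AP-2 factors rose steeply in late embryonic life and were highest at P1. Tfap2a, which acts with Tfap2b in young amacrine and horizontal cells, was at 13.3, 12.1 and 14.8 cpm at E14, at 81.4, 94.2 and 94.1 cpm at E17 and at 172, 166, 155 and 170 cpm at P1. No library of any of these ages reached into the range of another. It then stood at 68.0, 79.5 and 69.2 cpm at P6, at 48.6, 49.0, 47.0 and 55.7 cpm at P15 and at 45.6, 46.3, 47.8 and 43.0 cpm at P28. The P60 libraries had a lowest value of 26.8, a median of 39.3 and a highest of 40.9 cpm, below every P28 library. Its mean at P60 was 22.5% of that at P1.

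Per kb of exon, Tfap2b had the highest level of the 9 genes at P1, 86.4 ± 10.5 cpm per kb, and at P60 it had 28.7 ± 2.95 cpm per kb, behind Calb2 at 38.2 ± 4.43 and Slc6a9 at 31.1 ± 5.15 cpm per kb. In cpm it was at 87.2, 70.8 and 72.5 cpm at E14, at 359, 391 and 412 cpm at E17 and at 614, 467, 521 and 588 cpm at P1. Levels then declined to 370, 410 and 365 cpm at P6, to 258, 281, 270 and 282 cpm at P15, to 269, 253, 223 and 233 cpm at P28 and to a median of 174 cpm at P60, with 165 cpm as the lowest and 212 cpm as the highest. The P60 libraries did not reach those of P28, while P15 and P28 overlapped, and so did E17 and P6. The P60 mean was 33.2% of that at P1.

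Tfap2c had the lowest level of the 3 per kb of exon at each age. Its values were 3.30, 4.22 and 2.84 cpm at E14, 17.5, 17.3 and 18.6 cpm at E17 and 23.2, 23.2, 24.0 and 28.5 cpm at P1. From P6 to P60 all libraries lay between 11.1 and 20.01 cpm, and neighbouring ages overlapped, except P15 and P28. At P60 its mean was 65.2% of that at P1.

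From E14 to E17 all 3 AP-2 genes rose, Tfap2a by 2.66 ± 0.12, Tfap2b by 2.32 ± 0.10 and Tfap2c by 2.09 ± 0.16 (log2 fold change ± SE, limma adjusted p of 8.9e-12 or lower). From E17 to P1 Tfap2a rose by 0.88 ± 0.11 and Tfap2b by 0.49 ± 0.09, and Tfap2c had a difference of 0.45 ± 0.15 that missed the threshold (adjusted p = 0.053), and passed it in a fit of these ages alone (adjusted p = 0.011) and of features with a mean of 10 cpm or more (adjusted p = 0.032). From P1 to P6 all 3 fell, Tfap2a by 1.19 ± 0.11 (adjusted p = 1.9e-10), Tfap2b by 0.51 ± 0.09 (adjusted p = 4.4e-05) and Tfap2c by 0.44 ± 0.15 (adjusted p = 0.018). The call of Tfap2c was lost without P1 library 4 (adjusted p = 0.066) and without P6 library 3 (adjusted p = 0.11). From P6 to P15 Tfap2a fell by 0.52 ± 0.11 and Tfap2b by 0.48 ± 0.09, and Tfap2c differed by -0.05 ± 0.15 (adjusted p = 0.82).

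The AP-2 family was also set out by length. Each gene's cpm was divided by its exon length in kb, and the share of the family sum was taken in each library. Tfap2b held 40.4 ± 2.29% at E14 (mean ± SD, n = 3), 59.6 ± 1.53% at P1 (n = 4), 69.0 ± 0.49% at P15 (n = 4) and 65.0 ± 3.69% at P60 (n = 6). Tfap2a held 9.15 ± 0.84% at E14, 23.4 ± 1.98% at P1 and 17.2 ± 2.06% at P60. Tfap2c went from 3.17 ± 0.89% to 4.66 ± 0.47% and 10.03 ± 2.12% at the same ages. Tfap2d, a relative from outside the 9 genes, held the largest share at E14, 47.1 ± 1.94%, and 6.25 ± 1.66% at P60. Tfap2d itself was at 27.6 ± 2.69 cpm at E14, 49.0 ± 2.19 cpm at E17 and 5.41 ± 1.54 cpm at P60. Tfap2e stood at 8.83 ± 1.16 cpm at P1 and at no more than 3.03 cpm in any library of another age.

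Ratios were taken within each library, as log2 of (cpm + 1) of a gene over that of another. The log2 ratio of Tfap2b over Tfap2a was 2.26 ± 0.23 in embryonic and 2.35 ± 0.19 in mature libraries (mean ± SD, n = 6 and n = 14), a difference of 0.08 (exact permutation test, two-sided, p = 0.39, adjusted p = 0.39 over 8 ratio tests). It was lowest at P1, where cpm of Tfap2b was 3.31 times that of Tfap2a on average, between 2.82 and 3.56. The ratio of Tfap2c over Tfap2b was higher in mature libraries by 0.50 (exact permutation p = 0.003, adjusted p = 0.012). From P15 to P60 it differed by 0.48 with an adjusted p of 0.076 (exact permutation p = 0.048, n = 4 and n = 6), without P60 library 2 by 0.61 with an adjusted p of 0.025, and without P60 libraries 1 and 2 by 0.71 with an adjusted p of 0.046. Library 2 had the lowest Tfap2c of P60, 11.7 cpm.

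Bhlhe22 had its own time course, with the highest level at P6. It was at 18.9, 20.04 and 19.7 cpm at E14, at 31.4, 34.2 and 30.2 cpm at E17, at 60.7, 58.5, 64.0 and 62.6 cpm at P1 and at 77.4, 76.6 and 65.8 cpm at P6. Libraries of these 4 ages did not overlap. It was then at 40.2, 47.0, 44.1 and 42.2 cpm at P15, at 34.8, 34.5, 33.8 and 27.03 cpm at P28 and at a median of 20.5 cpm at P60, from 18.4 to 32.8 cpm. It rose from E14 to E17 by 0.68 ± 0.14 and from E17 to P1 by 0.92 ± 0.13, the difference from P1 to P6 was 0.25 ± 0.13 (limma, adjusted p = 0.15, and 0.017 in a fit of these ages alone), and it fell from P6 to P15 by 0.74 ± 0.13 (adjusted p = 4.7e-05). The related gene Bhlhe23 was at 9.17 ± 1.16 cpm at P6 and at most 0.11 cpm in any P1 library. The highest 2 values of Bhlhe22 at P60, 25.8 and 32.8 cpm, were in libraries 1 and 2.

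Gad1 and Gad2 encode enzymes of the same reaction and had different time courses. Gad1 was close to the detection limit at E14, with 5, 2 and 3 reads (0.50, 0.21 and 0.32 cpm). It stood at 16.4, 20.1 and 18.1 cpm at E17, at 35.8, 45.0, 34.1 and 36.2 cpm at P1 and at 55.8, 52.5 and 53.2 cpm at P6. It was at 111, 110, 111 and 104 cpm at P15, at 117, 113, 112 and 106 cpm at P28 and between 93.5 and 110 cpm at P60, with a median of 101.9 cpm. From E14 to P15 no library of an age reached the next, and the 3 mature ages overlapped. Summed over libraries, the E17 rate of Gad1 reads was 53.0 times that at E14 (563 against 10 reads, 95% exact interval for counting error only, 28.6 to 111).

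Gad2 was already present at E14, at 56.8, 52.6 and 49.99 cpm. It stood at 96.8, 95.6 and 102.4 cpm at E17 and at 119, 139, 125 and 136 cpm at P1. At P6 it was at 37.3, 36.3 and 31.2 cpm, below every library of the other ages except P60. Values were 54.7, 52.8, 56.8 and 42.6 cpm at P15, 52.5, 49.6, 47.1 and 41.4 cpm at P28, and 32.1 to 51.0 cpm with a median of 40.2 cpm at P60. From P1 to P6 Gad2 fell by 1.87 ± 0.13 (limma, adjusted p = 8.2e-14), while Gad1 rose by 0.51 ± 0.10 (adjusted p = 7.3e-05). From P6 to P15 both rose, Gad2 by 0.55 ± 0.13 and Gad1 by 1.002 ± 0.10. The rise of Gad2 from E17 to P1, 0.40 ± 0.13 (adjusted p = 0.04), was not called when any of 6 of the 7 libraries of these ages was left out (adjusted p between 0.059 and 0.14).

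Per kb of exon, Gad1 held 0.49 ± 0.18% of the sum of the 2 genes at E14, 12.5 ± 1.29% at E17, 18.2 ± 1.36% at P1, 54.3 ± 2.19% at P6, 61.9 ± 2.28% at P15, 64.4 ± 1.38% at P28 and 66.2 ± 4.76% at P60 (mean ± SD). Gad1 held less than Gad2 in every library up to P1 and more in every library from P6 on. The log2 ratio of Gad2 over Gad1 was 3.86 ± 1.63 in embryonic and -1.22 ± 0.23 in mature libraries, a difference of -5.08 (exact permutation p = 5.2e-05, adjusted p = 0.00041). With a pseudocount of 0.1 in place of 1 the difference was -5.94 (adjusted p = 0.00041). No embryonic library, the lowest at 2.19, came near the highest mature library at -0.86. From P15 to P60 the ratio differed by -0.27 (exact permutation p = 0.14, adjusted p = 0.19), and without P60 libraries 1 and 2 by -0.41 (adjusted p = 0.076). An annotated pseudogene, Gad1-ps, is a feature of its own, with 0.03 cpm at E14, 8.45 cpm at P1 and 37.7 cpm at P60 on average, so the split of reads between the gene and its copy is uncertain.

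**Figure D2:**
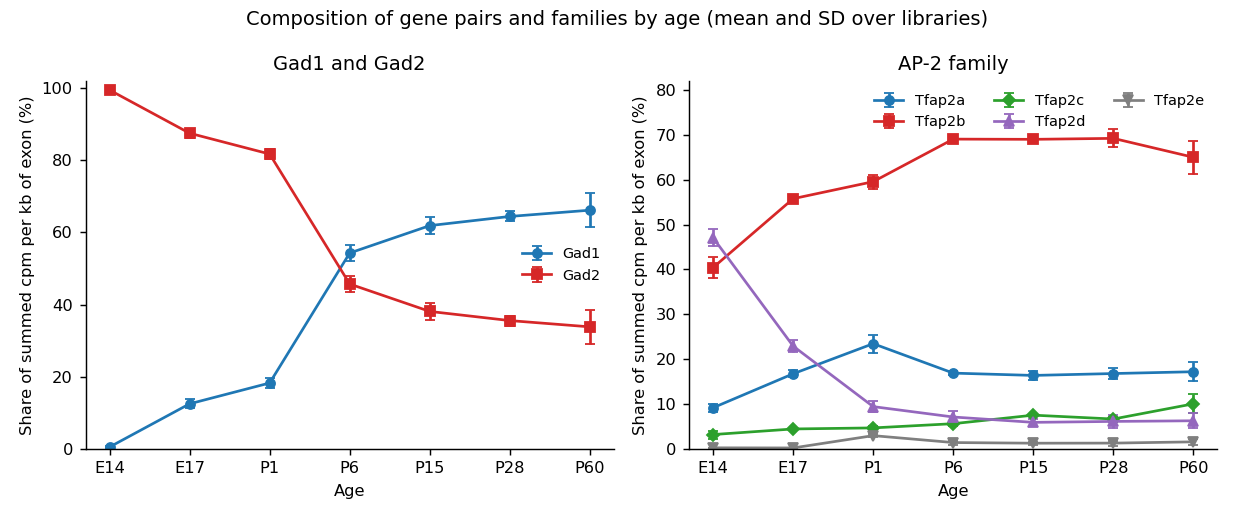
Share of each gene in the summed cpm per kb of exon (%), for Gad1 with Gad2 and for the AP-2 family, at the 7 ages (mean and SD over libraries). Gad1 went from under 1% at E14 to 66.2% at P60, and Tfap2d went from 47.1% to 6.25% of the AP-2 family.

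The bases before the starts of the GABA genes are shown because Gad1 and Slc32a1 moved together and Gad2 apart from them. They end at or before the start that RefSeq gives on GRCm38.p6, are on the plus strand and are printed without bases that lie in an annotated exon of the same gene. Capitals mark GCCNNNGGC, a core that AP-2 factors bind, which reads the same on both strands.
Gad1 (chr2:70561879-70562041): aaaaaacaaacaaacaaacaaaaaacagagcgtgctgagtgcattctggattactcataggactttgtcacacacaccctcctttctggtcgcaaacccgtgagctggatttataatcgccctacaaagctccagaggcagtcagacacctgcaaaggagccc
Gad2 (chr2:22622077-22622204): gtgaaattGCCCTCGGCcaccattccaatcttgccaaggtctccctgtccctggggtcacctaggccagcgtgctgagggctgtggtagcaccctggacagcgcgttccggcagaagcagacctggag
Slc32a1 (chr2:158610508-158610757): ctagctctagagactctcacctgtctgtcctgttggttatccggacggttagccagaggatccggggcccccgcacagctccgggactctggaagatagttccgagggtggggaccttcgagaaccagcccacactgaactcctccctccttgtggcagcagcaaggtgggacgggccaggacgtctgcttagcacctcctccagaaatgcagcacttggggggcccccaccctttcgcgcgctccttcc
The full 250 bases before the start held the core 2 times in Gad2 and 0 times in Gad1 and Slc32a1. Of the 2 in Gad2, 1 is in the part shown and the other reaches into an annotated Gad2 exon. Of 32851 RefSeq promoters of that length, 13.7% held it. The core was also at 0 in the windows of Tfap2a, Tfap2b and Slc6a9, the other members with a listed promoter. The windows of these genes and of Gad1 lie inside the annotated span of their gene, before starts other than the outermost. CANNTG, the E-box core bound by Bhlhe22 and its relatives, occurred 1 time in the 250 bases of Gad1, 1 time in those of Gad2 and 2 times in those of Slc32a1, and was in 66.2% of all promoters. These are matches of letters only.

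Slc32a1 rose at every step up to P15. It was at 1.80, 1.79 and 2.11 cpm at E14, at 7.05, 9.27 and 9.53 cpm at E17, at 13.1, 19.5, 13.7 and 16.3 cpm at P1 and at 25.1, 29.2 and 23.7 cpm at P6. At P15 it was at 34.8, 36.5, 38.0 and 41.8 cpm, at P28 at 36.0, 35.5, 37.1 and 34.2 cpm and at P60 from 26.2 to 48.2 cpm with a median of 34.5 cpm. The steps were 1.72 ± 0.17, 0.79 ± 0.16, 0.71 ± 0.16 and 0.52 ± 0.16 (log2 fold change ± SE, limma adjusted p from 2.5e-09 to 0.0097), and the last of them lost its call without P6 library 3 (adjusted p = 0.056). From P15 on, the ages overlapped. Gm14204, a gene whose exon covers the bases before Slc32a1 on the other strand, was at 9.51 cpm at E17 and 9.68 cpm at P60 on average.

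Slc6a9 was the only member whose mean was highest at P60. It stood at 8.30, 7.07 and 8.84 cpm at E14, at 11.45, 12.2 and 8.90 cpm at E17 and at 14.96, 18.8, 16.7 and 15.97 cpm at P1. It was at 54.0, 52.7 and 57.2 cpm at P6, at 101, 97.7, 102.1 and 121 cpm at P15, at 121, 120, 128 and 114 cpm at P28 and at P60 from 117 to 188 cpm with a median of 170 cpm. The lowest values of P60 were those of library 2, 117 cpm, and library 1, 138 cpm. All P60 libraries but library 2 lay above every earlier library, of which the highest was at 128 cpm. From E14 to E17 it differed by 0.38 ± 0.13 (limma, adjusted p = 0.071), and without E17 library 3 by 0.50 (adjusted p = 0.024). It rose by 0.58 ± 0.13 from E17 to P1, by 1.66 ± 0.13 from P1 to P6 (adjusted p = 1.6e-12) and by 0.93 ± 0.13 from P6 to P15. The largest step was at the age at which Gad2 fell.

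The genes that overlap Slc6a9 on the opposite strand rose in the same period. Ccdc24 was at 6.43 cpm at P1, 14.2 cpm at P6, 58.7 cpm at P15 and 99.7 cpm at P60, and B4galt2 at 25.5, 39.5, 88.3 and 136 cpm (means). Their part in the values of Slc6a9 was not tested. The log2 ratio of Slc6a9 over Slc32a1 was higher in mature than embryonic libraries by 0.84 (exact permutation p = 0.0066, adjusted p = 0.018), but with a pseudocount of 0.1 the difference was 0.65 with an adjusted p of 0.087. The 2 embryonic ages differed, with Slc6a9 at 4.25 times Slc32a1 in cpm at E14 and 1.29 times at E17. The lowest E14 library, at 3.94 times, was above the highest P15 library, at 2.90 times, so the difference does not hold for E14. From P15 to P60 the ratio rose by 0.64 (exact permutation p = 0.0095, adjusted p = 0.019), from 2.79 to 4.39 times in cpm, and no P60 library came as low as a P15 library.

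**Figure D3:**
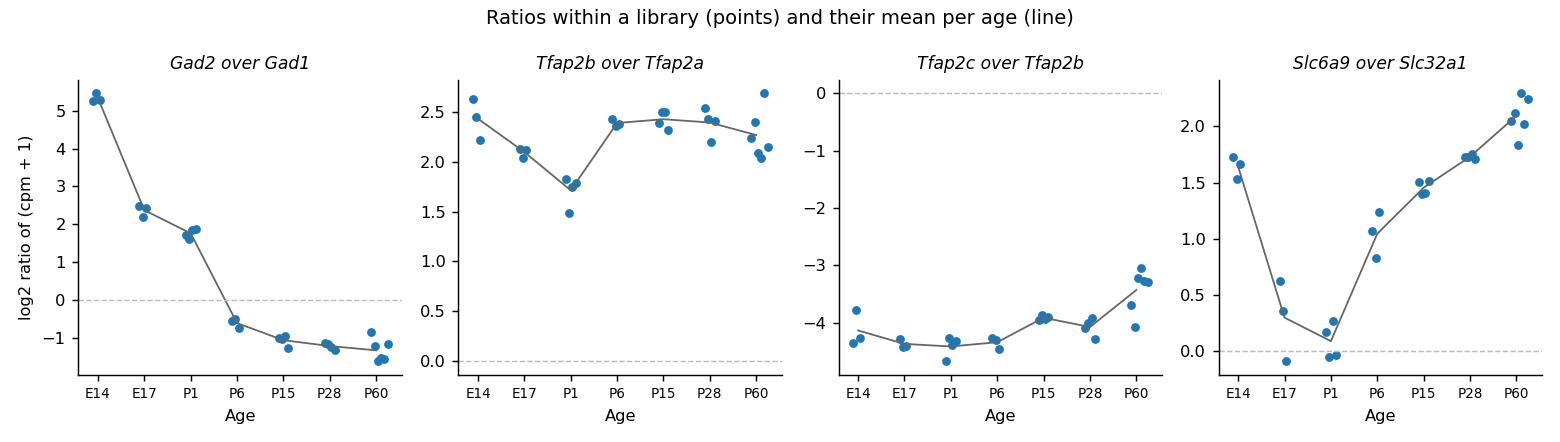
Log2 ratio of (cpm + 1) within each library (points) and its mean per age (line) for 4 gene ratios at the 7 ages, with a dashed line at equal values. Gad2 over Gad1 went from above 2 in embryonic to below -0.8 in mature libraries, Tfap2b over Tfap2a was lowest at P1, and Slc6a9 over Slc32a1 was lowest at P1 and highest at P60.

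Calb2, which encodes the calcium buffer calretinin, rose in separate phases. It was at 6.90, 8.97 and 8.74 cpm at E14 and at 28.2, 32.7 and 34.0 cpm at E17. At P1 it was at 36.2, 31.6, 33.5 and 28.4 cpm, which overlaps E17, with a difference of 0.03 ± 0.11 (limma, adjusted p = 0.92). It was at 47.6, 42.0 and 45.5 cpm at P6 and at 92.5, 85.1, 97.5 and 99.8 cpm at P15. It then stood at 83.5, 73.2, 76.0 and 84.1 cpm at P28 and from 57.3 to 80.4 cpm at P60, with a median of 64.9 cpm. The rise from P1 to P6 was 0.47 ± 0.11 (adjusted p = 0.00087), that from P6 to P15 was 1.04 ± 0.11 (adjusted p = 4.7e-09), and from P15 to P60 it fell by 0.49 ± 0.09 (adjusted p = 0.00027). Its relative Calb1, calbindin, was at 1.44 ± 0.64 cpm at P1 and 50.4 ± 6.32 cpm at P15.

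Counted by step, 8 members rose from E14 to E17 and none fell, where 7.56% of all features rose and 3.02% fell. From E17 to P1, 7 rose (all but Tfap2c and Calb2) and none fell (5.77% and 3.43% of features). The step from P1 to P6 split the members, with 4 rising (Gad1, Slc32a1, Slc6a9 and Calb2) and 4 falling (the 3 AP-2 genes and Gad2), beside 18.0% and 20.4% of features. From P6 to P15, 5 rose and 3 fell (14.4% and 19.0% of features). From P15 to P28, 0 of 9 were called by limma or by edgeR, where limma called 1.14% of features higher and 1.58% lower. At an unadjusted p under 0.05 there were 3 members with either tool. All features were not counted at that unadjusted threshold, so these 3 cannot be set against other genes. The largest difference from P15 to P28 was that of Bhlhe22, -0.41 ± 0.12 (limma, adjusted p = 0.072). Fits of these 2 ages alone, of features with a mean of 10 cpm or more, and with the replicate block called Bhlhe22, with adjusted p of 0.025, 0.048 and 0.036.

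**Figure D4:**
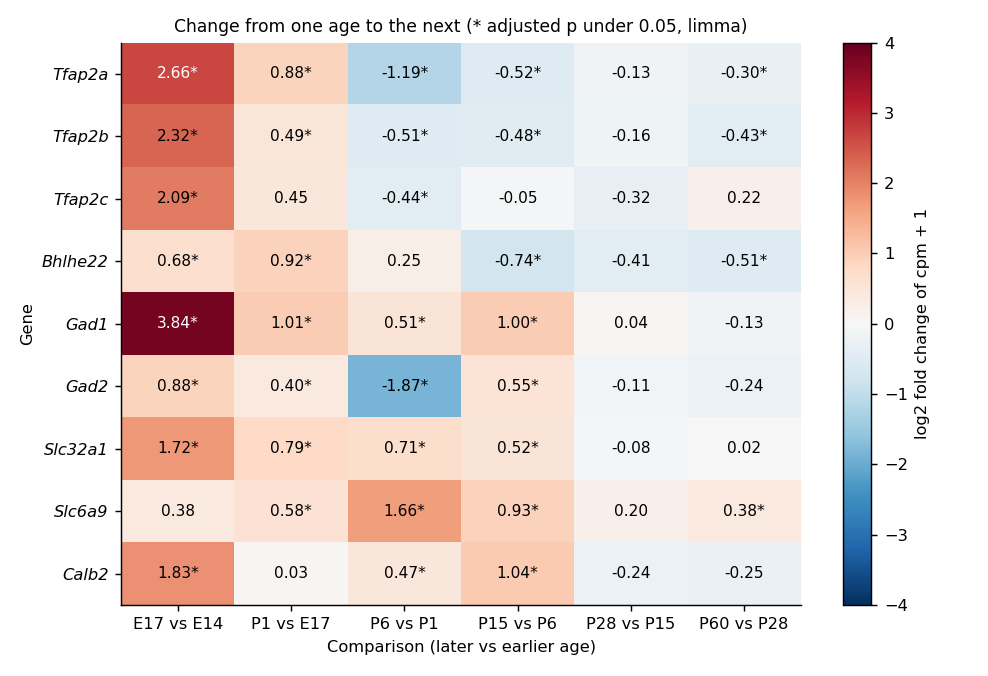
Log2 fold change of cpm + 1 from each age to the next for the 9 genes (color and number), with an asterisk where the limma adjusted p was under 0.05. Changes ran from 3.84 for Gad1 between E14 and E17 to -1.87 for Gad2 between P1 and P6, and no gene was called between P15 and P28.

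The adult changes were small. From P28 to P60, Tfap2b fell by 0.43 ± 0.08 (limma, adjusted p = 0.0026), Bhlhe22 by 0.51 ± 0.11 (adjusted p = 0.0073) and Tfap2a by 0.30 ± 0.09 (adjusted p = 0.035), and Slc6a9 rose by 0.38 ± 0.11 (adjusted p = 0.021). That is 1 higher and 3 lower, beside 4.80% and 8.11% of features. With TMM scaling in edgeR 2118 features were called higher and 1363 lower, with median-of-ratios scaling 2099 and 1967, against 1524 and 2576 here. Without P60 libraries 1 and 2, 6 members were called, with Tfap2c higher by 0.36 (adjusted p = 0.019) and Gad2 lower (-0.36, adjusted p = 0.0044) besides. The background also grew in that run, to 4240 of 31760 features called higher and 7104 lower. In a fit of P28 and P60 alone none was called (adjusted p of 0.13 to 0.23 for the 4). That fit called only 7 of all 31760 features, 6 higher and 1 lower, so its result is not particular to the members. Nearly all calls of this step thus rest on the spread estimated with the other ages. The call of Tfap2a was lost with either other scaling (adjusted p = 0.11) and without P28 library 1, 2 or 3 or P60 library 5 or 6, and that of Slc6a9 without P28 library 1, 2 or 4 or P60 library 4 or 5. Calb2, at -0.25 ± 0.09 (adjusted p = 0.067), was called without P60 library 3 (adjusted p = 0.037), and Gad2, at -0.24 ± 0.11 (adjusted p = 0.12), without P60 library 1 (adjusted p = 0.023). From P15 to P60, 1 rose (Slc6a9, 0.58 ± 0.11) and 5 fell, Bhlhe22 by 0.92 ± 0.11, Tfap2b by 0.59 ± 0.08, Calb2 by 0.49 ± 0.09, Tfap2a by 0.43 ± 0.09 and Gad2 by 0.36 ± 0.11, beside 10.1% and 18.0% of features. The call of Gad2 was lost without P15 library 3 (adjusted p = 0.056) and in a fit of P15 and P60 alone (adjusted p = 0.11). For that comparison edgeR called 4249 features higher and 3985 lower, with median-of-ratios scaling 4358 and 4526, against 3215 and 5715 here. The number of members called was 6 with or without P60 libraries 1 and 2, while without them 5057 features were called higher and 8688 lower. Gad1 (-0.09 ± 0.08), Slc32a1 (-0.06 ± 0.13) and Tfap2c (-0.10 ± 0.12) were not called.

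Markers of other cells moved over the same ages, and their part in these results was not tested. The 4 horizontal cell markers summed to 861 to 885 cpm at E14, 431 to 450 cpm at P1, 550 to 618 cpm at P6 and 343 to 398 cpm at P60, and between embryonic and mature retina 1 rose (Prox1, which other inner retinal neurons also use) and 2 fell (Onecut1 and Onecut2). The 8 ganglion cell markers summed to 1354 to 1399 cpm at E14, 548 to 645 cpm at P1, 521 to 600 cpm at P6 and 534 to 691 cpm at P60, and 1 rose and 7 fell. The 6 bipolar cell markers went from 25.4 to 28.8 cpm at E14 to 551 to 767 cpm at P6 and 1273 to 1706 cpm at P60, and all 6 rose. The 8 rod markers went from 23.7 to 30.9 cpm at E14 to 26294 to 32074 cpm at P60, and all 8 rose, and of 4 Müller glia markers 3 rose and 1 fell. Of the 4 pigment epithelium markers 2 rose, and the 1 lens marker tested was not called. The 6 markers of dividing progenitors went from 4259 to 4500 cpm at E14 to 76.6 to 103 cpm at P6, and all 6 fell. Beside these counts, 35.0% of all features were called higher and 40.4% lower between embryonic and mature retina. The lens marker Crygs was at 0 in every library of E14 and of P60, and no marker of the other lists in this paragraph was. The progenitor marker Fgf15 was at 0 in every P28 library. In whole retina, fewer cells of a type and less RNA per cell cannot be told apart.

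Of 11 tested of 12 other amacrine transcription factors, 3 rose and 8 fell between embryonic and mature retina, beside 35.0% and 40.4% of all features, and the median was -1.44 beside -0.06 for all features. Meis2, like the AP-2 genes, had its highest level at P1, with 79.2 ± 3.20 cpm at E14, 414 ± 28.4 cpm at P1 and 166 ± 23.5 cpm at P60. Prdm13, which acts in amacrine subtypes, was at 199 ± 10.7 cpm at P1 and 40.7 ± 4.98 cpm at P60. Ebf3 was highest at E14, at 536 ± 6.59 cpm, and was at 46.9 ± 4.19 cpm at P60, and Ebf1 went from 228 ± 13.7 to 34.0 ± 4.45 cpm. Between P1 and P6, 1 rose and 9 fell, beside 18.0% and 20.4% of all features.

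Of 8 other genes of GABA and glycine handling, 4 rose and 2 fell between embryonic and mature retina, where 35.0% of all features rose and 40.4% fell, and the median was 0.77 beside -0.06 for all features. Abat, which breaks GABA down, fell by 0.57 ± 0.06 and Slc38a1 by 0.35 ± 0.05. Between P1 and P6, 4 of the 8 rose and 2 fell, beside 18.0% and 20.4% of all features.

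Of 13 tested of 14 transmitter and peptide genes that mark amacrine subtypes, 9 rose and 3 fell between embryonic and mature retina, beside 35.0% and 40.4% of all features, with a median of 1.30. Chat, Vip, Npy and Crh were at 0 in all E14 libraries. Slc17a8, the vesicular glutamate transporter of a glycinergic amacrine type, was at 0.83 ± 0.31 cpm at P1, 3.21 ± 0.90 cpm at P6 and 22.7 ± 3.85 cpm at P15. Nos1 was at 0.89 ± 0.39, 3.58 ± 0.61 and 14.4 ± 2.91 cpm and the choline transporter gene Slc5a7 at 1.79 ± 0.92, 8.502 ± 0.48 and 18.1 ± 1.89 cpm at the same ages. Slc18a2, the vesicular monoamine transporter, fell by 1.49 ± 0.12 between embryonic and mature retina. Of the 5 relatives of the members, 4 rose and Tfap2d fell.

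Correlations between members across the 27 libraries are given as a description, since all genes share the libraries and the ages. Gad1, Slc32a1, Slc6a9 and Calb2 had Pearson r from 0.84 (Gad1 with Slc6a9) to 0.98 (Gad1 with Slc32a1) among them. Tfap2a and Tfap2b had an r of 0.97, and Tfap2c had 0.84 with Tfap2a and 0.86 with Tfap2b. Gad2 had 0.64 with Tfap2a, -0.25 with Gad1 and -0.67 with Slc6a9. Bhlhe22 had 0.82 with Tfap2b and 0.59 with Tfap2c.

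Outside the 9 genes, 13570 features with a Gene ID and a mean of at least 5 cpm were ranked by the same measure over the 27 libraries. Syt6 was the most like both Tfap2a (r = 0.98) and Tfap2b (r = 0.97), followed by Meis2 and Lhx9 for Tfap2a (0.97 each) and by Gm26803 and Wipi1 for Tfap2b (0.95 each). Tfap2c was most like Myh14 (0.97), 4922502B01Rik and Anks1b (0.95 each), and Bhlhe22 was most like St6gal2 (0.97), Neurod4 (0.96) and Rabgap1 (0.94). Gad1 was most like Slc6a11 (0.996), which encodes the GABA transporter GAT3, Chrna6 (0.99) and Thy1 (0.99). Slc32a1 was most like Iqsec3 (0.99), Elfn2 (0.99) and Dock9 (0.98), and Slc6a9 most like Psd (0.997), Ppm1n (0.996) and Scamp5 (0.994). Calb2 was most like Meg3 (0.98), Chrna6 (0.98) and Grm8 (0.97). Gad2 had the least close neighbours, Pon2 (0.93), Hs3st4 (0.92) and C230037L09 (0.92).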

How the data were processed

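RNA of whole retina at 7 ages was measured by the authors with total RNA libraries (SMARTer kit), single-end 50-base reads and STAR alignment to GRCm38 (mm10). The authors deposited 1 table of CPM values per feature and library; annotation and strand setting of the counting were not given in the sources used here. Groups are the ages in the labels. The labels and the paper differ on retinas per library, and nothing says that all libraries are separate litters, so p-values measure the spread between libraries. The members and gene lists were chosen with earlier results of these data known.

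Of 38168 features, 31760 reached 1 CPM in 3 or more libraries and were tested as log2(CPM + 1) with limma 3.58.1 in R 4.3.3, mean-variance trend, age as factor, all 27 libraries, two-sided, Benjamini-Hochberg over all features, called at an adjusted p under 0.05. This scale understates the change of low genes. Whole reads were recovered from the CPM steps (100% of values within 0.05 of a whole number) and gave the depth, 7076646 to 11330762 reads per library, and an edgeR 4.0.16 test. A value of 3 reads was taken as the floor, and intervals cover counting error only. The CPM step of E14 replicate 1 lies near a round decimal, so edgeR was also run without it. Ratios were tested by exact permutation of libraries (scipy 1.17.1), which takes no account of the ages within the mature and embryonic groups. Tests were tried on simulated data. No same-age libraries agreed within counting noise (chi-square per degree of freedom at least 1.72). All 9 members were named, the 4 highest genes of each other list, and the 3 most correlated features per member; other genes named were chosen after their values were seen. Some genes that this rule names are not reported here. Exon lengths, coordinates and overlaps came from GENCODE M21.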

Additional observations from a re-analysis of the deposited data

Results flagged for a closer look

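In groups of 4 to 6 libraries, 4 of 36 tests over members and ages had a library farther from the others than Dixon's 95% value allows, where chance gives about 1 in 20. Tfap2a at P60 had 26.8 cpm in library 5, against 36.4 to 40.9 cpm in the others. Tfap2c at P1 had 28.5 cpm in library 4, against 23.2 to 24.0 cpm. Bhlhe22 at P28 had 27.03 cpm in library 4, against 33.8 to 34.8 cpm. Gad1 at P15 had 104 cpm in library 4, against 110 to 111 cpm.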

How the results depend on the processing

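No called value changed sign under any alternative run. Numbers of members called kept within 1.5 times for most settings. A minimum change of 1 on the log2 scale left 4 members for mature against embryonic retina, 1 for P1 against E17, 3 for P6 against P1, 2 for P15 against P6, and 0 for P60 against P28 or P15. All features were not counted at that minimum, so these numbers do not set the members against other genes. From P15 to P28, 1 member was called with a filter at a mean of 10 CPM, with the replicate block and in a fit of the compared ages only. The features called in these runs were 771 of 13492, 923 of 31760 and 1331 of 31760. From P28 to P60, the replicate block called 2 members (1029 of 31760 features) and the fit of the compared ages 0 (7 of 31760 features). Leaving out a library gave 2 to 5 members, with 2 without P28 library 1, P28 library 2 or P60 library 5. The replicate block called 9 members for mature against embryonic retina (23744 of 31760 features) and 6 from P15 to P60 (6972 features). It called 7 to 8 members at each of the steps up to P15, where 3527, 3019, 12370 and 10641 features were called in order of age. Same-numbered libraries did not deviate together on average (mean r of -0.001 over 69 pairs, -0.129 to 0.167). This gave no sign of a pairing by number, but a mean over all pairs cannot exclude one between some ages. The difference of the log2 ratio of Slc6a9 over Slc32a1 between mature and embryonic libraries was 0.65 with a pseudocount of 0.1, that of Gad2 over Gad1 was -5.94 with the same pseudocount, and that of Tfap2c over Tfap2b from P15 to P60 was 0.41 to 0.61 when a library was left out and 0.71 without P60 libraries 1 and 2. TMM scaling moved the median of all features between mature and embryonic retina from -0.06 to 0.04. At E14, reads limit Gad1, with 2 to 5 per library. The cause of these changes was not tested.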
